A study of Mus musculus with 4 samples.

Results

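The 10 genes described here encode chaperones and folding enzymes of the endoplasmic reticulum (ER), and were taken by symbol from the 32285 genes that the matrices list. They are Hspa5, Hsp90b1, Sdf2l1, Creld2, Calr, Canx, Pdia3, Pdia4, Pdia6 and P4hb, and all 10 passed the filter on low counts in every comparison below. The question was how their levels in thyroid follicular cells compared with those in the other cell classes of the gland, and whether they followed the share of thyroglobulin (Tg) transcripts of a follicular cell. Thyroid glands of C57BL/6 mice aged 5, 10, 20 or 30 days after birth had been dissociated with collagenase and dispase, and glands of 10 mice per age made up 1 droplet-based single-cell library, in which counted molecules (UMIs) are tied to droplets by barcodes. The labels name no treatment or transgene, and each age had 1 library, so that single ages could not be compared with a test, and no trend over the 4 ages was tested.

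Thyroglobulin, the precursor of thyroid hormone, is a large glycoprotein with many disulfide bonds that folds in the ER before it is exported to the follicle lumen. BiP (Hspa5) and GRP94 (Hsp90b1) bind exposed hydrophobic stretches of such proteins, calreticulin (Calr) and calnexin (Canx) retain glycoproteins through their trimmed sugars, and protein disulfide isomerases form and reshuffle the disulfide bonds. When unfolded proteins accumulate in the ER, the factor ATF6 binds together with NF-Y at the ER stress response element (ERSE) of many of these genes.

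The element is shown because it is a sequence that several of the 10 promoters share. The letters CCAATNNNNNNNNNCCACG, where N is any base, were searched on both strands in the RefSeq promoters of GRCm38.p6, from 250 bases before to 50 bases after the start site. They were found in 6 of the 10 member promoters, in 39 of all 32851 promoters (0.119%) and in 4 of 121 promoters of genes on the other ER lists used here. A match of letters is a description and does not show that a factor binds. The element was picked as one known in many of these genes, so that these counts are no test of enrichment. Capitals mark the CCAAT and CCACG parts, which belong to the element, and each is written 5′ to 3′ on the strand that carries it.
Hspa5, chr2:34772025-34772043, same strand as the gene: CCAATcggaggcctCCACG
Hsp90b1, chr10:86705638-86705656, same strand as the gene: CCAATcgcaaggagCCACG
Hsp90b1, chr10:86705533-86705551, strand opposite to the gene: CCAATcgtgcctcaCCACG
Calr, chr8:84847075-84847093, strand opposite to the gene: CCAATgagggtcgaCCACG
Canx, chr11:50325800-50325818, same strand as the gene: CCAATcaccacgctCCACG
Pdia6, chr12:17266491-17266509, same strand as the gene: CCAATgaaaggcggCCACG
Creld2, chr15:88819520-88819538, strand opposite to the gene: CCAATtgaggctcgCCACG
The first base of these elements lay 65 (Hspa5) to 212 (Hsp90b1) bases from the RefSeq start site. In GENCODE the Hspa5 gene spans chr2:34771970-34777547, so that its element fell inside the gene, whereas the other 6 elements lay upstream of the GENCODE genes. These letters were not in the windows of Pdia3, Pdia4, P4hb and Sdf2l1. The second form of the element, ERSE-II, and the core of the unfolded protein response element were in 0 of the 10 windows, and in 12 and 222 of all promoters.

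The libraries held 54921806 to 89039113 UMIs, and 29578 cells were kept, 4820 to 12956 per library. Between any pair of the day 10, day 20 and day 30 libraries 97.4% to 98.8% of the cell barcodes were shared, at a median of 8 to 12 UMIs in the second library. Pairs with the day 5 library shared 33.6% to 49.9% at a median of 1 UMI. H19, an imprinted fetal RNA that normally declines after birth, stood at 61.5, 817, 123 and 2887 CPM (UMI counts scaled to the total of a class) in fibroblast-like cells at the labelled days 5, 10, 20 and 30, which does not follow the order of the labels. The clusters behind this class differed between libraries, since cluster 9, which has H19 among its leading genes, held 146, 863, 46 and 613 cells and cluster 8 held 1281, 61, 306 and 11 cells. In the authors' list of cells the barcodes end in a number from 1 to 4, which no label explains, and all 6555 barcodes with number 1 lay in the library labelled day 30 and all 15297 with number 4 in that labelled day 5. The study's methods give the most cells to day 30, whereas the library labelled day 5 was the largest here. Whether the labels of day 5 and day 30 are exchanged was not tested, and ages are given as the labels of the libraries. The comparisons of classes and of Tg share do not use the ages. Clusters were named after marker genes and are called "-like" throughout, and the 10 genes and the genes of the other lists took no part in the clustering. The 4092 follicular-like cells (2734, 512, 319 and 527 by library) had a median of 8715 to 19459 UMIs and 3.49% to 6.83% of their UMIs from Tg. The 12 follicular markers had also served to name the clusters, so that their levels do not test the name. Of the 12, 11 had their highest median level in these cells, though Slc26a4, the anion exchanger pendrin, only at 0.080 CPM. The other, Hhex, was at 179 CPM and in C-like cells at 225 CPM.

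All 10 members had their highest median level over libraries in the follicular-like cells among 15 classes. Summed over the 10 genes, the follicular-like cells reached 8897, 11654, 9296 and 10900 CPM, in the order of the labelled days 5, 10, 20 and 30 used from here on. C-like cells, the calcitonin-producing cells of the gland, came second with a median of 6031 CPM (range 5943 to 7391), and fibroblast-like cells next with 4566 CPM (3420 to 5001). The follicular and C-like ranges did not overlap, and neither did the C-like and fibroblast-like ranges, whereas fibroblast-like and Schwann-like cells (3798 CPM, 2097 to 4909) overlapped. The C-like sums include cells with over 1% of their UMIs from Tg, described below. The place of this class was not computed without them. At the other end, B-like cells had a median of 1682 CPM (1282 to 1849) and neutrophil-like cells 1231 CPM (1008 to 1379), also with overlapping ranges. Free RNA, measured in droplets with 10 to 100 UMIs, held 2641 to 3298 CPM of the 10 genes, above every library of the B-like, NK-like, monocyte-like and neutrophil-like cells.

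**Figure D1:**
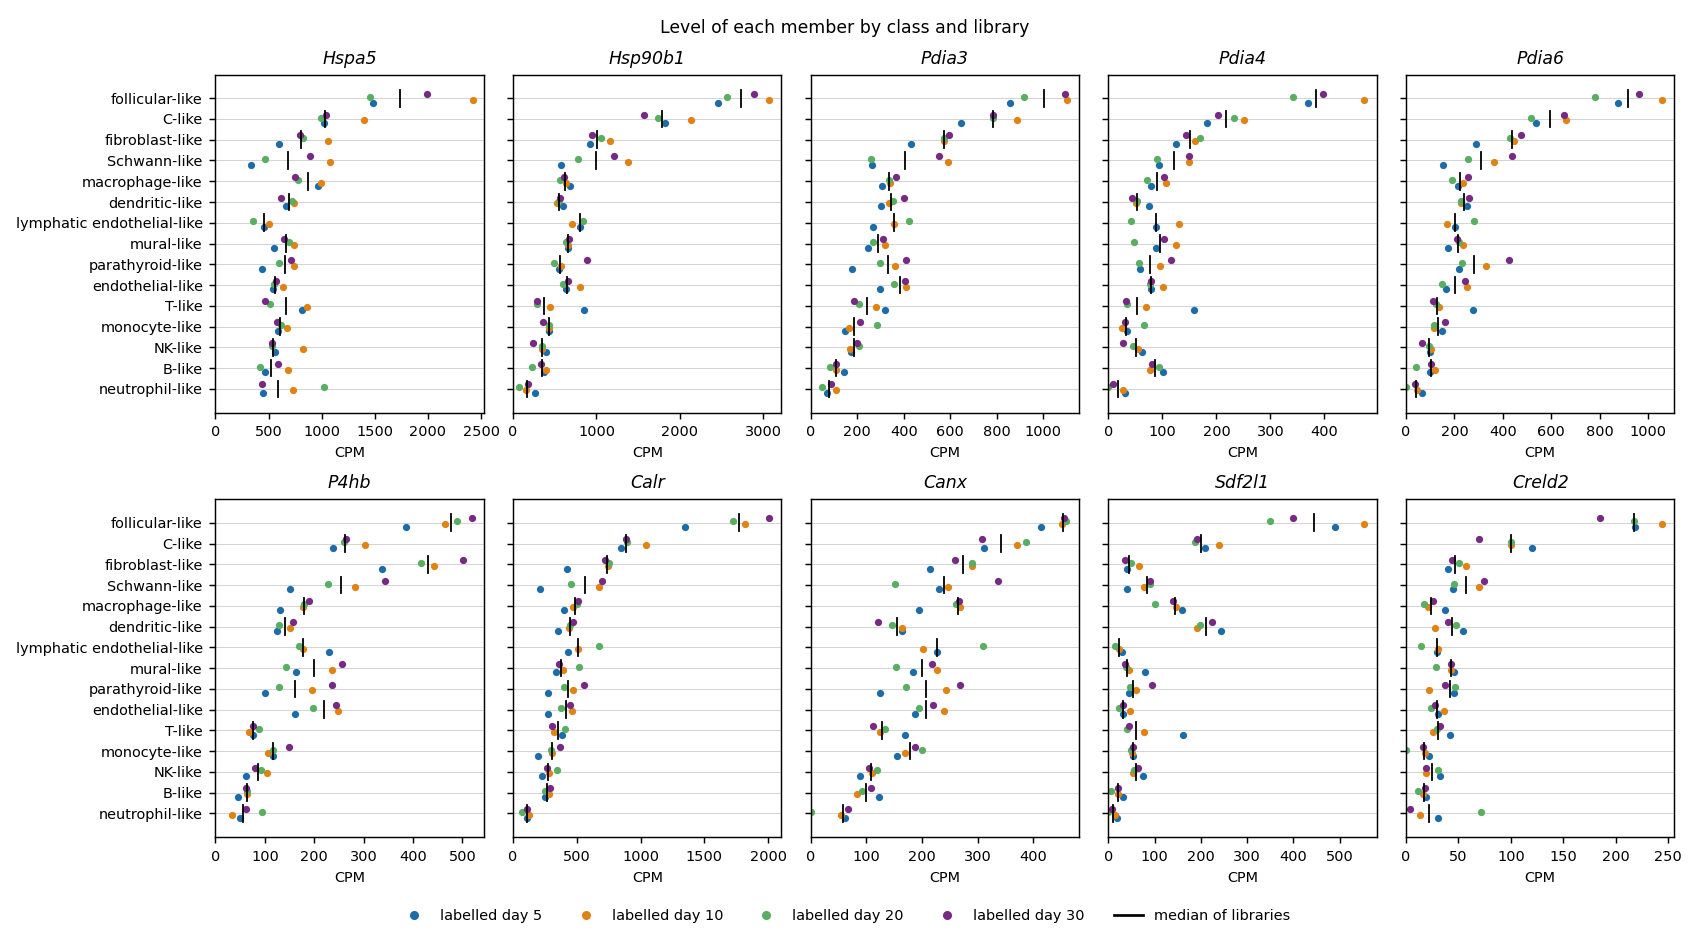
Level of each gene (x axis, CPM, linear from 0) in 15 classes (y axis, ordered by the summed level of the 10 genes), with 1 point per library and a line at the median of the libraries. The follicular-like points lie to the right of all other classes for 8 genes, while P4hb overlaps with fibroblast-like and Pdia3 with C-like cells.

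BiP, the Hsp70 of the ER, stood at 1481, 2422, 1451 and 1993 CPM in follicular-like cells (Hspa5). In fibroblast-like cells it reached 594, 1055, 823 and 796 CPM, and in B-like cells 463, 685, 418 and 592 CPM. The classes other than follicular-like lay close together for Hspa5, from a median of 461 CPM in lymphatic endothelial-like to 1033 CPM in C-like cells, and each overlapped with the next in order. GRP94 (Hsp90b1), the Hsp90 of the ER, stood at 2461, 3068, 2567 and 2892 CPM in follicular-like cells. Its fibroblast-like values were 923, 1161, 1057 and 943 CPM, and its B-like values 370, 390, 226 and 331 CPM. For both chaperones each follicular-like library was above every library of the classes just named.

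Sdf2l1 and Creld2, a pair of small ER proteins of which the first works with BiP and its J-domain partners, had the largest differences from fibroblast-like and B-like cells. Sdf2l1 was at 491, 553, 349 and 398 CPM in follicular-like cells and at 41.2, 67.2, 49.8 and 36.0 CPM in fibroblast-like cells. In B-like cells its values were 32.3, 21.6, 5.80 and 21.7 CPM. Dendritic-like cells came second for this gene, at 244, 192, 198 and 223 CPM, and overlapped with C-like cells at 209, 240, 187 and 191 CPM. Creld2 reached 218, 244, 217 and 185 CPM in follicular-like cells. Fibroblast-like cells had 40.5, 56.9, 50.4 and 43.6 CPM of it and C-like cells 120, 100, 101 and 70.0 CPM. Both genes were higher in free RNA (112 to 212 CPM for Sdf2l1 and 46.9 to 83.7 CPM for Creld2) than in most classes outside the follicular-like one.

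Calreticulin, the soluble lectin, was at 1349, 1820, 1725 and 2008 CPM in follicular-like cells, against 425, 748, 756 and 724 CPM in fibroblast-like and 849, 1045, 894 and 882 CPM in C-like cells. Calnexin, its membrane-bound counterpart, had 415, 453, 460 and 455 CPM in follicular-like cells. Canx values in C-like cells were 311, 372, 388 and 307 CPM and did not overlap with the follicular-like ones. Pdia3 (ERp57), the disulfide isomerase that acts with both lectins, was at 855, 1101, 915 and 1091 CPM in follicular-like and at 646, 886, 784 and 785 CPM in C-like cells. The highest C-like library was thus above the lowest follicular-like one, although within each library follicular-like cells were higher.

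The disulfide isomerases Pdia4 (ERp72) and Pdia6 (P5) separated the follicular-like class from all others. Pdia4 was at 370, 473, 341 and 397 CPM in follicular-like and at 182, 252, 232 and 203 CPM in C-like cells. For Pdia6 the values were 873, 1055, 782 and 960 CPM in follicular-like and 537, 659, 517 and 653 CPM in C-like cells. P4hb, which is protein disulfide isomerase itself and also the beta subunit of the collagen prolyl 4-hydroxylase, differed least of the 10 between follicular-like and fibroblast-like cells. Its levels were 385, 464, 489 and 519 CPM in follicular-like and 337, 443, 417 and 500 CPM in fibroblast-like cells, with overlapping ranges. Within each of the 4 libraries the follicular-like level was higher, by 0.053 to 0.23 on the log2 scale of CPM. C-like cells had 239, 303, 260 and 264 CPM of P4hb.

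Differences between classes were tested with edgeR's quasi-likelihood test on the UMI sums of 4 libraries with the library as block, with Benjamini-Hochberg adjustment over all genes tested. Against fibroblast-like cells 9 of the 10 genes were higher in follicular-like cells and 0 lower, where 32.1% of 13697 genes were called higher and 32.5% lower. The median log2 fold change of the 10 was 1.13, against -0.01 for all genes. Sdf2l1 showed the largest change (log2 fold change 3.07 ± 0.17 SE, adjusted p = 8.44e-06), followed by Creld2 (2.02 ± 0.12) and Hsp90b1 (1.27 ± 0.094). Canx had the smallest change of those that passed (0.61 ± 0.11, adjusted p = 0.00224). P4hb did not pass, at -0.02 ± 0.099 (adjusted p = 0.863), and its sign turned under several alternatives, for example to 0.14 without TMM scaling.

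Against B-like cells, lymphocytes that in their resting state secrete little, 10 of the 10 genes were higher, where 37.9% of 11789 genes were called higher and 25.9% lower. The median log2 fold change was 2.67, against 0.26 for all genes. Sdf2l1 led again with 3.99 ± 0.23, and Hspa5 had the smallest change, 1.42 ± 0.14 (adjusted p = 1.25e-11). Creld2 (3.26 ± 0.24), Pdia6 (2.93 ± 0.19) and Pdia3 (2.81 ± 0.18) lay between them.

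The comparison with C-like cells, which also secrete peptides, gave 8 of 10 genes higher and 0 lower, where 20.6% of 12684 genes were called higher and 20.6% lower. Their median log2 fold change was 0.58, against 0.03 for all genes. Creld2 (0.98 ± 0.11, adjusted p = 2.76e-06) and Sdf2l1 (0.94 ± 0.10) changed most, followed by Calr (0.73 ± 0.094) and Pdia4 (0.70 ± 0.10). Pdia3 (0.19 ± 0.088, adjusted p = 0.103) and Canx (0.21 ± 0.096, adjusted p = 0.0975) did not pass. Of the 424 C-like cells, 97 had over 1% of their UMIs from Tg, and Tg held 1.29% to 2.35% of the UMIs of the class by library. Those 97 cells had medians of 23500 to 61970 UMIs by library, against 2518 to 10190 UMIs in the other C-like cells. Without them 9 of 10 genes were higher and the median log2 fold change was 0.97. The median of all genes is not given for this alternative, so that the change is not set against it. Shares of all genes called are not given for this and the following alternatives. The count was 4 with free RNA subtracted, where the median was 2.41 for the 10 genes and 3.76 for all genes, 4 in a joint fit of all classes and 5 without the block. The subtraction was scaled to take out all Tg of the class. Tg was at 23488 CPM in C-like cells at day 5 (2.35% of UMIs) and at 2.32% of UMIs at day 20. In free RNA it was at most at 17496 CPM. More UMIs than either of these sums held were thus subtracted, and this alternative cannot judge free RNA in C-like cells.

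In the remaining 11 comparisons 10 of 10 genes were higher in follicular-like cells. The shares of all genes called higher were 34.6% against dendritic-like, 33.9% against endothelial-like, 15.4% against lymphatic endothelial-like (3 libraries), 33.4% against macrophage-like, 35.2% against monocyte-like and 22.5% against mural-like cells. They were 48.5% against neutrophil-like, 36.6% against NK-like, 17.8% against parathyroid-like, 20.6% against Schwann-like and 30.9% against T-like cells. Median log2 fold changes of the 10 genes ran from 1.28 against dendritic-like to 3.96 against neutrophil-like cells, where the medians of all genes were 0.11 and 1.45. Over the alternatives these medians ran from 1.21 to 1.89 and from 2.94 to 4.36, and Sdf2l1 against neutrophil-like cells (5.43) ran from 3.71 to 7.18. Sdf2l1 had the largest change against 6 of these 11 classes but the smallest against dendritic-like cells (0.51 ± 0.13, adjusted p = 0.00829). Canx or Hspa5 had the smallest change against each of the other 10. Of the 15 heat-shock and immediate-early genes, 12 were higher and 1 lower against lymphatic endothelial-like, 9 and 3 against T-like, 8 and 1 against Schwann-like, 8 and 5 against NK-like, 7 and 5 against neutrophil-like and 6 and 1 against parathyroid-like cells. They were 4 higher and 4 lower against endothelial-like, 5 and 7 against monocyte-like, 3 and 8 against dendritic-like, 2 and 7 against macrophage-like and 1 and 3 against mural-like cells, and their part in the results for the 10 genes was not tested. The shares of all genes called lower are not given for these 11 comparisons. The 5 of 15 higher against monocyte-like and 7 of 15 against neutrophil-like cells were near the shares of all genes, 35.2% and 48.5%. In the 16 neutrophil-like cells of the library labelled day 20, Pdia4, Pdia6, Canx and Sdf2l1 had 0 UMIs, which allows up to 71.3 CPM for counting error alone.

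Counted without a test, every follicular-like library was above every library of the other class for 9 of 10 genes against C-like cells, where 18.7% of all genes did so, and for 9 of 10 against fibroblast-like cells, where 30.2% did so. It was 10 of 10 against each other class. The shares of all genes were 44.7% against B-like, 47.8% against dendritic-like, 29.2% against endothelial-like, 24.6% against lymphatic endothelial-like, 38.8% against macrophage-like, 44.3% against monocyte-like and 20.6% against mural-like cells. They were 49.8% against neutrophil-like, 44.1% against NK-like, 32.4% against parathyroid-like, 20.1% against Schwann-like and 38.9% against T-like cells.

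**Figure D2:**
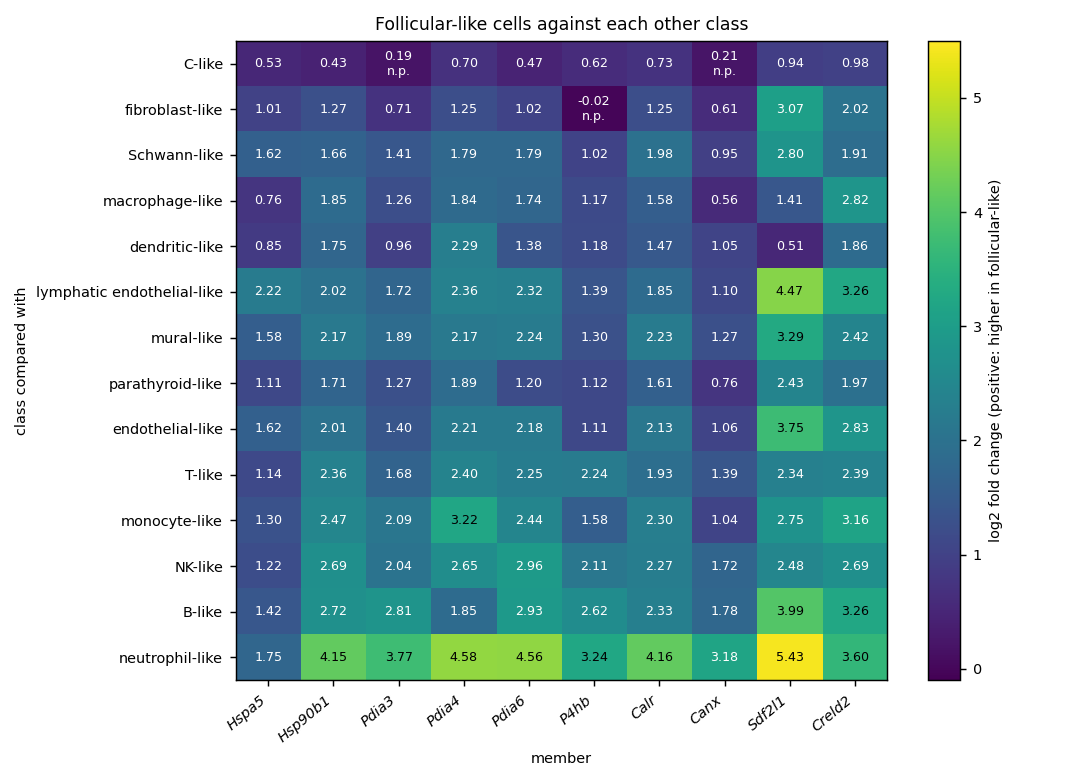
Log2 fold change of each gene (columns) between follicular-like cells and each other class (rows), from edgeR on UMI sums per library; positive is higher in follicular-like cells and n.p. marks an adjusted p of 0.05 or more. The 3 cells marked n.p. are Pdia3 and Canx against C-like and P4hb against fibroblast-like cells, and the column of Sdf2l1 holds the highest value, 5.43 against neutrophil-like cells.

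Other ER genes did not move as one with the 10. Against fibroblast-like cells 32.1% of all genes were called higher and 32.5% lower. In the comparison with fibroblast-like cells, 6 of 9 co-chaperones and exchange factors of BiP were higher and 2 lower, led by Manf (1.55 ± 0.13), Hyou1 and Sil1 (1.27 ± 0.11). All 14 genes on the list of collagen-directed ER enzymes were lower in follicular-like cells, among them P3h3 (-7.42 ± 0.20), Serpinh1 (-4.66 ± 0.24), the collagen chaperone HSP47, and P3h1 (-3.79 ± 0.10). Of 8 ER prolyl isomerases, 5 were lower and 1 higher. The other oxidative folding enzymes had 5 higher and 6 lower of 13. Ero1lb, the oxidase that recharges disulfide isomerases in secretory cells, was higher by 4.76 ± 0.26. Degradation genes, with 6 higher and 5 lower of 16, were near the shares of all genes, and Derl3, a member of that list, was higher by 5.68 ± 0.20. Of 23 genes of translocon, signal peptidase and oligosaccharyl transferase 10 were higher and 8 lower, with the signal peptidase subunit Sec11c at 3.46 ± 0.13. Of 18 KDEL receptors and ER export genes 4 were higher and 12 lower, with a median of -0.65. Heat-shock and immediate-early genes, which can respond to tissue dissociation, had 11 higher and 1 lower of 15 (median 0.53), and their part in the result for the 10 genes was not tested.

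Against C-like cells, where 20.6% of all genes were called in each direction, 5 of 8 prolyl isomerases were higher and 2 lower, with Ppic at 1.12 ± 0.12, Ppib at 0.82 ± 0.092 and Fkbp11 at -0.93 ± 0.12. Of the other lists, 3 of 9 co-chaperones were higher and 1 lower, 4 of 23 genes of translocon, signal peptidase and oligosaccharyl transferase were higher and 4 lower, and 4 of 16 degradation genes were higher and 1 lower. Derl3 was higher by 1.29 ± 0.13. Prdx4 (-1.15 ± 0.11) and Tmx4 (-1.54 ± 0.13), a pair of thiol-active ER proteins, were lower in follicular-like cells. Against B-like cells 37.9% of all genes were called higher and 25.9% lower. There 21 of 23 translocon genes and 8 of 9 co-chaperones were higher and 0 lower, whereas of 19 cytosolic and mitochondrial chaperones 0 were higher and 11 lower. Of 15 heat-shock and immediate-early genes 9 were higher and 4 lower against B-like cells, and 4 were higher and 1 lower against C-like cells. Of the unfolded protein response sensors and factors, 3 of 16 were higher and 7 lower against B-like cells, with Xbp1 at 2.33 ± 0.22 and Eif2ak3, the kinase PERK, at -2.64 ± 0.21.

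**Figure D3:**
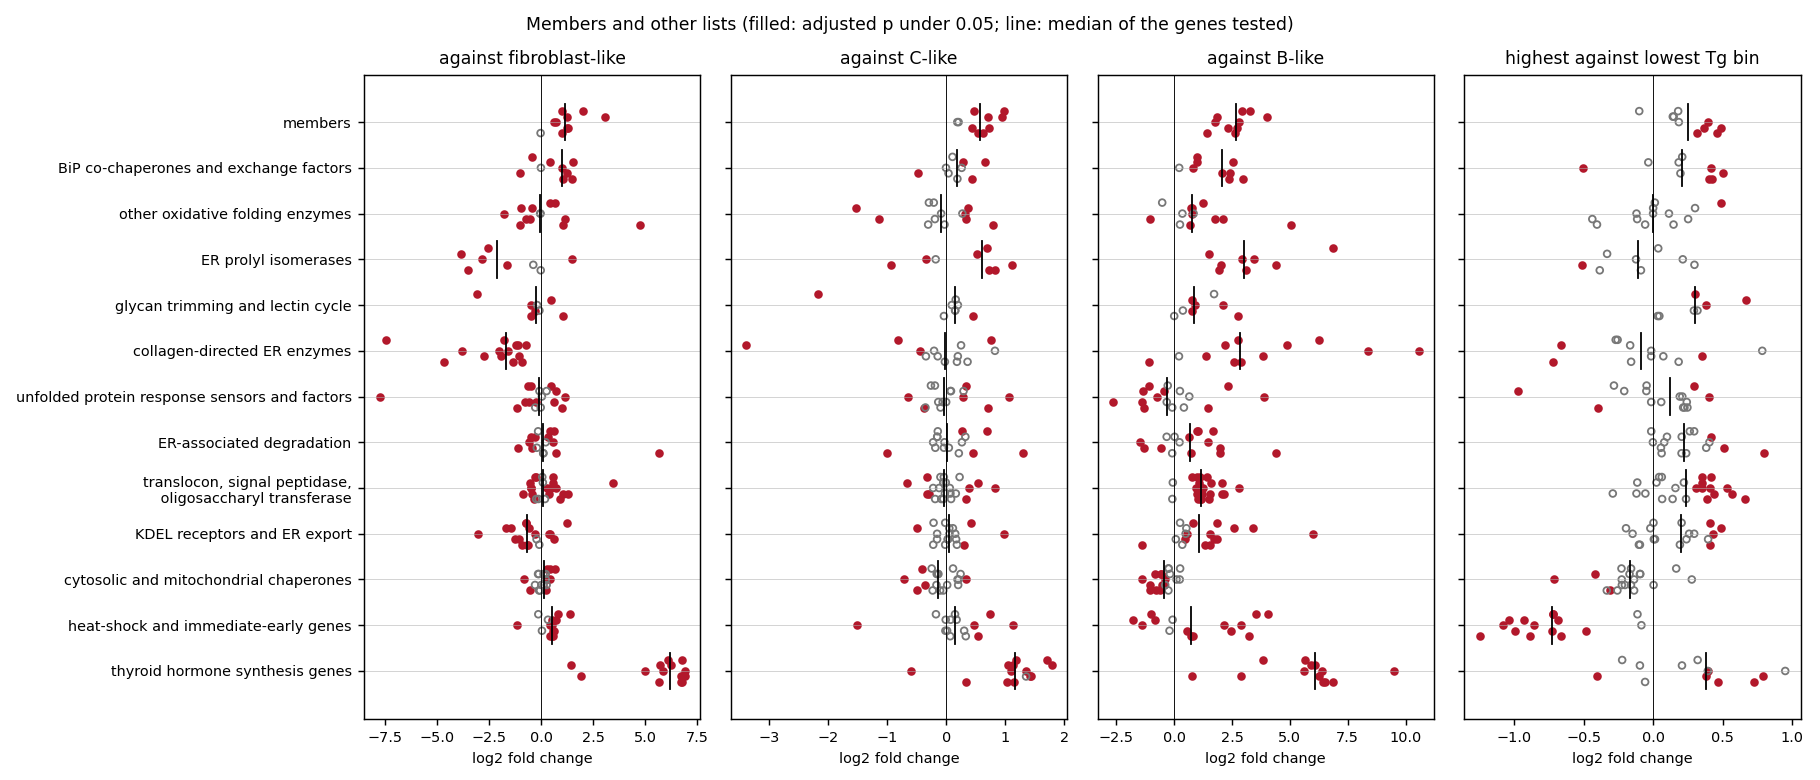
Log2 fold change (x axis) of the 10 genes and of 12 other lists (y axis) in 4 comparisons, 1 point per gene tested, filled where the adjusted p was under 0.05, with a line at the median of the list. All 14 genes on the list of collagen-directed ER enzymes lie below 0 in the comparison with fibroblast-like cells, and 13 of 15 heat-shock and immediate-early genes are filled below 0 in the Tg comparison.

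Within the follicular-like class, cells of each library were divided into 4 bins of equal cell number by the share of their UMIs that came from Tg, and Tg was then taken out of counts and totals. The median Tg share was 1.27% to 3.37% in the lowest and 5.19% to 9.51% in the highest bin of the libraries. Summed over the 10 genes, the lowest and highest bin had 7518 and 10430 CPM at day 5, 10745 and 13272 CPM at day 10, 8617 and 10564 CPM at day 20, and 9728 and 11947 CPM at day 30. The highest bin was thus 1.23-fold to 1.39-fold above the lowest in the 4 libraries. Across single cells Spearman's rho between Tg share and the summed level was 0.37, 0.18, 0.29 and 0.25 in 2732, 510, 319 and 524 cells, as a description of cells that share a library.

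Of the 10 genes 5 were higher in the highest bin and 0 lower, where 5.72% of 10751 genes were called higher and 6.42% lower. The median log2 fold change was 0.25, against 0.0027 for all genes. Calr had the largest fitted change, from 1033 to 1742, 1574 to 2208, 1545 to 2093 and 1678 to 2302 CPM in the 4 libraries (log2 fold change 0.49 ± 0.070 SE, adjusted p = 0.00237). By library, P4hb and Canx rose more than Calr at day 30, and Creld2 did at day 20. P4hb rose from 315 to 502, 422 to 548, 439 to 569 and 403 to 595 CPM (0.46 ± 0.078, adjusted p = 0.00513). Canx (0.39 ± 0.072, adjusted p = 0.00694), Hsp90b1 (0.37 ± 0.058, adjusted p = 0.00369) and Hspa5 (0.31 ± 0.061, adjusted p = 0.00944) were the others, each higher in all 4 libraries. These 5 include both lectin chaperones and the 2 major chaperones BiP and GRP94, and 4 of the 5 carry the element shown above, as do 2 of the other 5, Pdia6 and Creld2. Whether the element relates to the Tg share was not tested.

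Pdia3 (0.18 ± 0.067, adjusted p = 0.0995), Creld2 (0.18 ± 0.11), Pdia4 (0.15 ± 0.073) and Sdf2l1 (0.14 ± 0.076) did not pass. Pdia6 had -0.10 ± 0.079 (adjusted p = 0.45) and its libraries split, with 832 and 949 CPM in the lowest and highest bin at day 5 and 1108 and 976 CPM at day 30. By library, 8 of the 10 genes had a higher level in the highest bin in all 4, where 21.8% of all genes did so. Creld2 (3 of 4 libraries) and Pdia6 (1 of 4) were the exceptions.

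**Figure D4:**
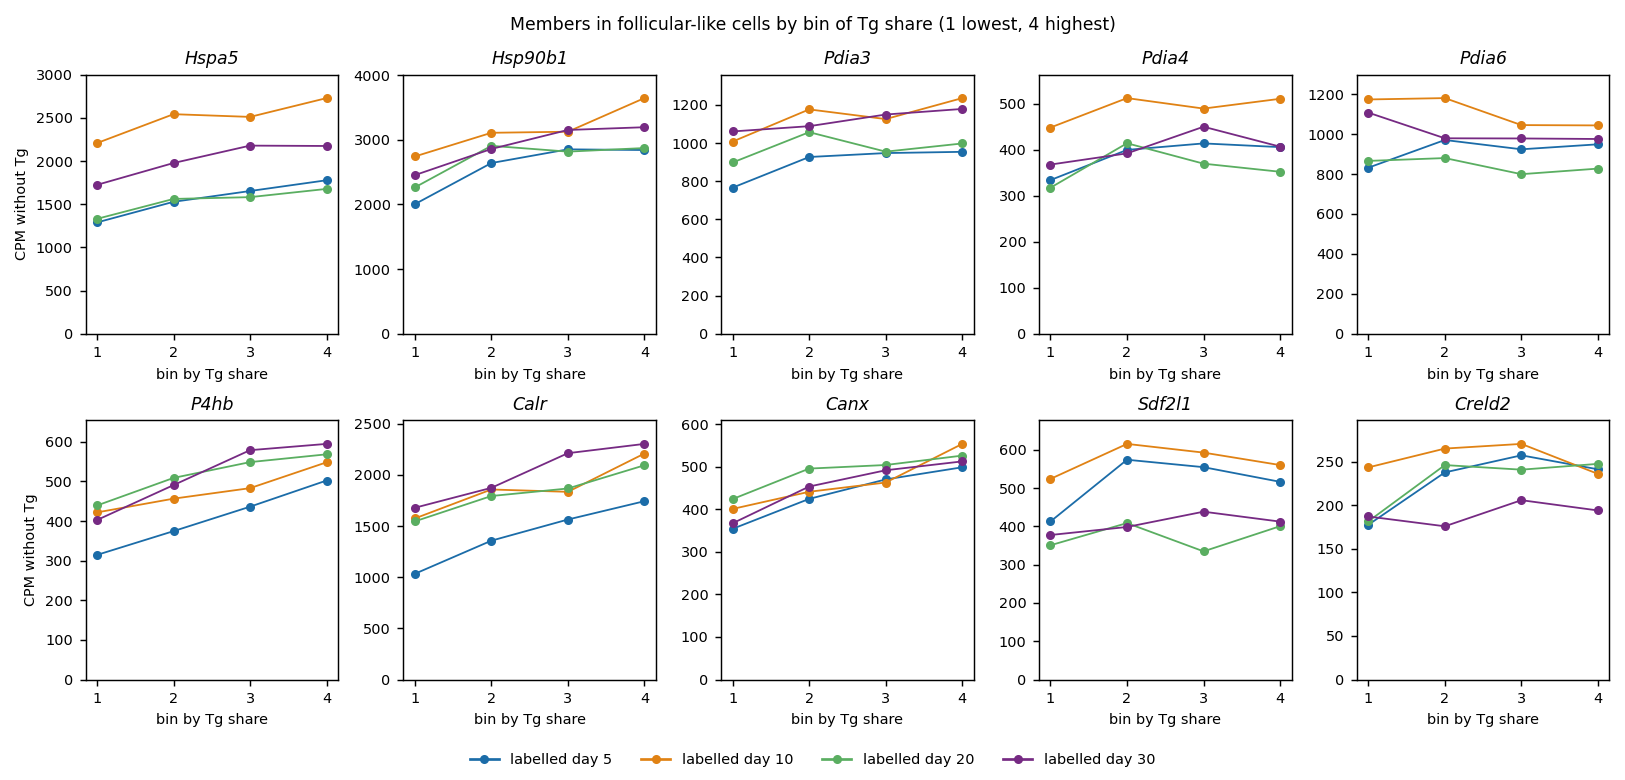
Level of each gene in follicular-like cells (y axis, CPM with Tg left out, from 0) by bin of the Tg share of a cell (x axis, 1 lowest to 4 highest), 1 line per library. Calr, P4hb, Canx, Hsp90b1 and Hspa5 end above their starting level in all 4 libraries, whereas Pdia6 does so in 1 of 4, at day 5.

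Other properties moved with the Tg share. The summed level of 15 heat-shock and immediate-early genes was 13855, 14838, 15646 and 12329 CPM in the lowest and 6073, 11855, 6218 and 8948 CPM in the highest bin, and 13 of the 15 were lower and 0 higher (Atf3 -1.25 ± 0.21, Jun -1.08 ± 0.14, Junb -1.04 ± 0.13). The 8 markers of endothelial cells summed to 2338, 780, 990 and 60.9 CPM in the lowest and to 192, 201, 46.4 and 130 CPM in the highest bin. The 8 markers of T cells summed to 32.1, 12.4, 305 and 17.3 CPM in the lowest and to 8.81, 8.61, 90.5 and 20.0 CPM in the highest bin. The 11 follicular markers other than Tg summed to 2885, 3157, 3096 and 3779 CPM in the lowest bin. In the highest bin they reached 4125, 3479, 3883 and 4033 CPM. The 8 markers of C cells summed to 140, 139, 65.9 and 120 CPM in the lowest bin. In the highest bin they had 207, 254, 540 and 100 CPM. Of 13 thyroid hormone synthesis genes 5 were higher and 1 lower. Median UMIs per cell were 9050, 10496, 12270 and 12217 in the lowest and 6565, 14713, 24116 and 27694 in the highest bin. Mitochondrial UMIs were 3.01%, 3.97%, 6.24% and 4.48% in the lowest and 3.92%, 5.01%, 7.25% and 5.54% in the highest bin. The part of depth, mitochondrial share, heat-shock genes and follicular markers in the result was not tested. With follicular-like cells left out that had over 0.1% of their UMIs from markers of 9 other classes, 5 genes were higher and 1, Pdia6, was lower (-0.22 ± 0.063, adjusted p = 0.0214). These classes were endothelial, T, B, NK, macrophage, monocyte, neutrophil and dendritic cells and other epithelium. Markers of C cells were not used, so that this filter did not act on them. The list of other epithelium includes Bpifa1, the leading gene of follicular-like cluster 3. With each cell thinned to 2000 UMIs, 6 were higher, with cells of at most 10000 UMIs 2 were, where 3110 genes could be tested, and with doublets kept 9 were. The shares of all genes called are not given for these alternatives, so that the counts are not set against them. The call rested on the block, since 0 genes of all passed without it, and 2 of the 10 passed without the library labelled day 10. Over the 17 alternatives the log2 fold changes of the 5 genes stayed above 0, at 0.39 to 0.63 for Calr, 0.31 to 0.55 for P4hb, 0.24 to 0.53 for Canx, 0.29 to 0.61 for Hsp90b1 and 0.24 to 0.46 for Hspa5.

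The other ER lists are given against the 5.72% of all genes called higher and the 6.42% called lower, and no difference between lists was tested. Of 23 genes of translocon, signal peptidase and oligosaccharyl transferase, 11 were higher in the highest bin and 0 lower, with Sec61a1, the channel of the translocon, at 0.66 ± 0.094, Spcs3 at 0.57 ± 0.095 and Rpn1 at 0.53 ± 0.083. Of 16 degradation genes 3 were higher and 0 lower, with Derl3 at 0.79 ± 0.094, and of 7 genes of the glycan cycle 3 were higher and 0 lower, with the folding sensor Uggt1 at 0.67 ± 0.10. Of 18 KDEL receptors and ER export genes 4 were higher and 0 lower. The other oxidative folding enzymes had 1 higher and 0 lower of 13, and the prolyl isomerases 0 higher and 1 lower of 8. Of 9 co-chaperones of BiP, 4 were higher, among them Sil1 (0.50 ± 0.11), and 1 lower, Dnajb9 (-0.50 ± 0.12). Of 19 cytosolic and mitochondrial chaperones 0 were higher and 3 lower, with Dnaja1 at -0.71 ± 0.084. Of 16 sensors and factors of the unfolded protein response, 2 were higher and 2 lower. Creb3l2 (0.40 ± 0.11) and Xbp1 (0.29 ± 0.077, named after its value was seen) were the higher ones, and Ppp1r15a (-0.97 ± 0.13) and Atf4 (-0.40 ± 0.097), which act in the PERK branch, the lower ones.

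Between libraries, the levels in follicular-like cells were highest in the library labelled day 10 for 7 of the 10 genes, in that labelled day 30 for P4hb and Calr and in that labelled day 20 for Canx. From day 5 to day 30 the log2 ratio was 0.29 for the 10 genes together (95% interval 0.28 to 0.30), where the median of 8780 genes was 0.22. With cells of at most 10000 UMIs, the limit in the study's methods, it was 0.083, and Pdia4 (-0.12) and Canx (-0.17) were then below 0. Without that limit it was 0.57 for Calr, 0.43 for Hspa5 and for P4hb, and below 0 for Sdf2l1 (-0.30, -0.34 to -0.26) and Creld2 (-0.23, -0.30 to -0.17). These intervals cover counting error only, and no replicate library stands behind them. If the labels of day 5 and day 30 were exchanged, each of these ratios would turn its sign. Different clusters held most follicular-like cells, cluster 3 in the libraries labelled day 5 and 20 and cluster 2 in those labelled day 10 and 30. Within cluster 2 the summed level without Tg was 8998, 12259, 9323 and 11393 CPM, and within cluster 3 it was 9986, 12615, 10702 and 11485 CPM. Both clusters were highest in the library labelled day 10. Of the 10 genes, 6 were higher at days 10 and 30 than at days 5 and 20, a grouping chosen after the data were seen, and 31.7% of 8798 genes did the same.

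**Figure D5:**
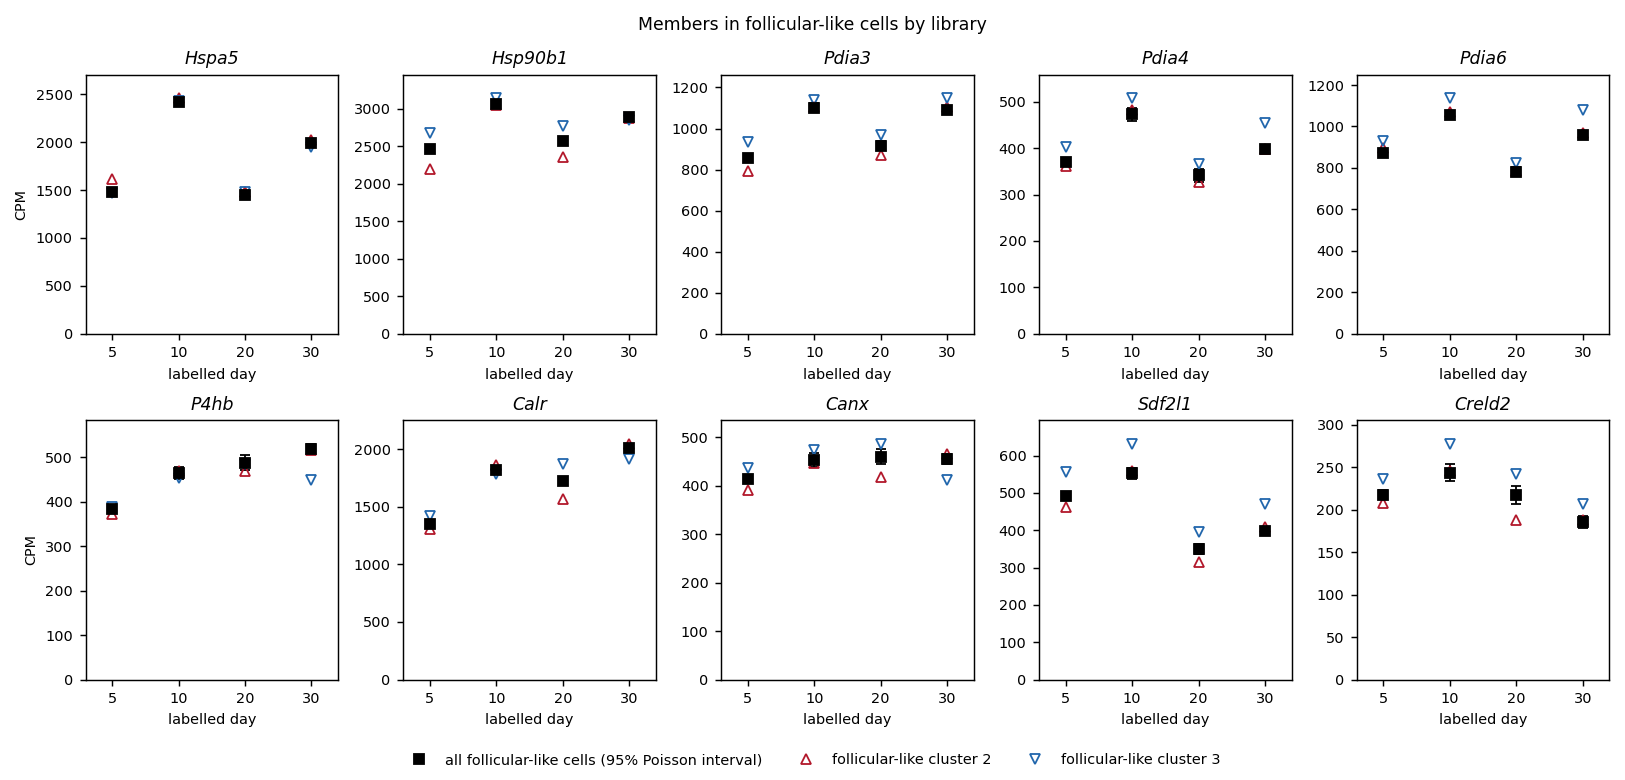
Level of each gene (y axis, CPM of all UMIs, from 0) in all follicular-like cells (squares, with 95% Poisson intervals) and in their clusters 2 and 3 (triangles) by library (x axis, labelled day). Hspa5 ranges from 1451 to 2422 CPM, and at day 30 cluster 3 lies below cluster 2 for P4hb and Canx but above it for Pdia4, Sdf2l1 and Creld2.

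Over the 59 sums of class and library, the mean of the standardized log2 levels of the 10 genes correlated most with Hsp90b1 (Pearson's r = 0.97), Pdia3 (0.96), Calr (0.95) and Pdia6 (0.93), which are part of that mean, and least, of the 9 members with at least 50 CPM on average, with Hspa5 (0.68). Among gene pairs r was highest for Pdia6 and Canx (0.94) and lowest for Canx and Creld2 (0.25). Outside the lists, the genes with the most similar pattern were Hdlbp (0.84), Cdk8 (0.83), Cpq (0.82), Bsg (0.82) and Nucb1 (0.81), ranked among 3204 genes. The sums share libraries and classes, and these values are a description.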

How the data were processed

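Raw counts deposited by the authors, UMIs per gene and barcode for every droplet of 4 libraries, came from CellRanger with mm10 as reference, per the labels and file headers. A further deposited table of the authors lists 37503 barcodes as cells, of which only the barcodes were used, assigned to the library with most of their UMIs. Cells had at least 200 UMIs, at most 10% mitochondrial and at most 5% hemoglobin UMIs. The 6% of cells with the highest Scrublet score per library were removed, because the automatic threshold marked few cells in 3 libraries. No integration and no upper UMI limit were used; the limit of 10000 UMIs in the study's methods was an alternative. Cells were clustered in scanpy 1.11.5 (3000 variable genes without list genes, 30 components, Leiden resolution 1.0) and a cluster was named only with at least 3 detected markers. Droplets of 10 to 100 UMIs gave the free RNA.

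UMIs were summed per library and class (at least 10 cells and 20000 UMIs) and compared in edgeR 4.0.16 (TMM, filterByExpr, quasi-likelihood test) in R 4.3.3. The library was a block because both sums of a library came from the same pooled mice. DESeq2 1.42.0 was an alternative. SE is the log2 fold change over the square root of F. The test code was also run on simulated sums for the comparisons with fibroblast-like and C-like cells and by Tg share. Those had the same spread for all genes and library effects shared by both groups. Their outcome is not given here and does not judge the p-values above. Follicular-like cells with at least 1000 UMIs entered the Tg comparison. Levels have exact 95% Poisson intervals, ratios between libraries conditional binomial ones, both for counting error. Where 0 UMIs were found, 3 counts set the limit. P-values of the fits with a block measure how much the difference within a library varied over libraries of different ages.

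All 10 members were named. Of other lists at most 3 genes were named by fold change among those that passed in the comparisons with fibroblast-like, C-like and B-like cells and by Tg, and the 5 genes outside the lists with at least 50 CPM most like the members. H19 served as a check, and the levels of follicular markers, which also named the class, as a description. Members, lists and rules were chosen with earlier results of these data known. Promoters are those of RefSeq, gene spans those of GENCODE, both on GRCm38. Protein sequences were not used here.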

Additional observations from a re-analysis of the deposited data

Results flagged for a closer look

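The Tg comparison of Pdia6 had opposite directions in the libraries. The log2 ratio of the highest to the lowest Tg bin was 0.19 in the library labelled day 5, -0.17 in that labelled day 10 and -0.18 in that labelled day 30, and the difference between libraries was not tested.

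The log2 ratio of the 10 genes between the libraries labelled day 30 and day 5 was 0.29 in follicular-like, -0.97 in T-like and -0.15 in NK-like cells, and the difference between classes was not tested. Of the 14 classes with both libraries these were the follicular-like class and the 2 whose interval lay below 0. The others ran from -0.20 (-0.48 to 0.088) in neutrophil-like to 1.19 (1.07 to 1.31) in Schwann-like cells, with 0.0055 in C-like and 0.057 in B-like cells. The follicular-like ratio was 0.083 with cells of at most 10000 UMIs. An exchange of the labels of day 5 and day 30, which was not tested, would turn the sign of all 3 ratios. Of the 441 T-like cells labelled day 5, 350 lay in cluster 32, and of the 1237 labelled day 30, 788 lay in cluster 30, which Rag1 leads. Their part in the T-like ratio was not tested.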

How the results depend on the processing

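Outside C-like cells, 9 or 10 genes were called higher in follicular-like cells of every class comparison under every alternative run. The counts in this section are given without the shares of all genes called, and describe only how the calls of the 10 genes moved. Against C-like cells the count moved from 8 to 5 without the replicate block, 4 with free RNA subtracted and 4 in one joint fit, and Pdia3 reversed to -0.078 at most 10000 UMIs per cell. The subtraction took more UMIs than at least the C-like sums labelled day 5 and day 20 held, so that it cannot judge free RNA in this class. P4hb against fibroblast-like cells (-0.02) was reversed to 0.14 without TMM, 0.064 without the filter, 0.014 with Tg left out, 0.0028 with free RNA subtracted, 0.024 with doublets kept, 0.21 with Tg, Calca and Pth left out and no TMM, and 0.032 in the joint fit, and ran from -0.053 to 0.061 when 1 library was left out. By Tg share the count of 5 moved to 0 without the replicate block, 2 at most 10000 UMIs per cell and 9 with doublets kept, and ran from 2 (without the library labelled day 10) to 5 when 1 library was left out. There Pdia6 turned to 0.052 at most 10000 UMIs and 0.090 with doublets kept, Sdf2l1 to -0.032 in the largest cluster and -0.0265 without cells with other markers, and Creld2 to -0.13 and -0.00014. The ratio of day 30 to day 5 of the 10 genes (0.29) was 0.083 at most 10000 UMIs, 0.24 with doublets kept, 0.27 with Tg left out of the totals and 0.23 with cells weighted equally. Pdia4 turned to -0.12 and Canx to -0.17 at most 10000 UMIs, and Canx to -0.005251 with cells weighted equally. The cause was not tested. The comparison with parathyroid-like cells had no value at most 10000 UMIs, and that with lymphatic endothelial-like cells, which had no sum in the library labelled day 30, none without that library. The alternatives that left out cells over 1% Tg, left out Calca and Pth, used the largest cluster, split the UMIs of a cell or left out cells with other markers were chosen after seeing the data. Small sums limit what could be detected, as in the 16 neutrophil-like cells of the library labelled day 20, where 0 counts allow up to 71.3 CPM.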
